A study of Mus musculus with 151 samples.

Results

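The members described here are 40 imprinted genes of the mouse, named one by one and found in all 7 count tables of the study among the 35976 gene names that each table holds. They were chosen by name, though with earlier results of these data known. By their textbook status, 23 are expressed mainly from the paternal allele (such as Igf2, Dlk1, Mest, Peg3 and Peg10), 15 mainly from the maternal allele (such as H19, Igf2r, Cdkn1c, Meg3 and Phlda2), and 2, Gnas and Inpp5f, have transcripts of both kinds.

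Genomic imprinting marks the maternal and paternal chromosomes differently, by DNA methylation laid down in the egg or sperm. In the offspring, an imprinted gene is then read mainly from its maternal or its paternal copy. The marks of the previous generation are erased in primordial germ cells (PGCs), are written anew in growing oocytes, and must be kept through the preimplantation stages that an IVF embryo spends in culture. Most imprinted genes lie in clusters around a control region, many act on fetal or placental growth, and several of them are imprinted in some tissues only.

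The mice were conceived naturally (Natural) or by IVF. For IVF, eggs of superovulated CF-1 females were fertilised with sperm of B6/SJL males, cultured to blastocysts and transferred to pseudopregnant CF-1 recipients. Natural mice came from matings of the same kinds of parents without transfer, so that superovulation of the mother, fertilisation in vitro, culture and transfer cannot be told apart. The methods also give a gestation a day longer for some IVF pregnancies, which cannot be told apart from conception either. Whole ovaries numbered 4 Natural against 6 IVF at E18.5, 4 against 5 at 12 weeks and 5 against 5 at 39 weeks. Germline libraries were PGCs at E13.5 (4 against 5, each of pooled cells), single oocytes at 12 weeks (36 against 40) and at 39 weeks (9 against 10), and cumulus cells were taken at 12 weeks (5 against 5). The donors of oocytes and cumulus cells were all superovulated, all adults had been delivered by cesarean section and fostered, and the source label of Natural replicate 5 at 39 weeks reads 40 weeks. The 12-week oocytes were summed into 5 sets in each group by the shared start of their library names, which was taken to mark a donor although the labels do not say so. These names differ by treatment throughout, so that whatever they mark and conception cannot be told apart. The 39-week oocytes carry no label of the animal and were treated as 1 sample a group, with no test.

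The counts did not separate the parental alleles, so a change in level is not a change of imprinting and a loss of imprinting could not be read from them. Values are counts in the usual CPM unit, scaled to each library's total after adjustment by edgeR's TMM factor. For single oocytes of either age, and for the pooled 39-week oocytes, the plain totals were used. Values of these oocytes are thus not on the same scale as the other values. Differences are log2 ratios of IVF to Natural unless another pair is named. An adjusted p is that of edgeR's quasi-likelihood test with Benjamini-Hochberg adjustment over all genes tested, called below 0.05. Library totals were 6995713 to 14830788 counts for the E18.5 ovaries, 2839022 to 43363799 at 12 weeks, 18079970 to 38751638 at 39 weeks, 4364495 to 8675189 for PGCs and 2532824 to 6345249 for cumulus cells. In tissue, fewer cells of a type and less RNA per cell cannot be told apart.

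The 40 genes were read most widely in the fetal ovary. At a mean of at least 1 CPM in Natural samples, 37 of 40 were detected in E18.5 ovaries, 33 in ovaries of each adult age, 29 in PGCs, 22 in 39-week oocytes, 19 in 12-week oocytes and 17 in cumulus cells. Of all gene names, the shares at this level were 43.8% in E18.5 ovaries, 43.9% and 41.8% in the adult ovaries, 38.0% in PGCs, 33.9% and 30.4% in oocytes and 32.6% in cumulus cells. The 12-week oocyte held 11 of the 15 maternal members and 6 of the 23 paternal members at this level, against 6 and 9 in cumulus cells. The heatmap of Natural levels shows these differences gene by gene.

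**Figure D1:**
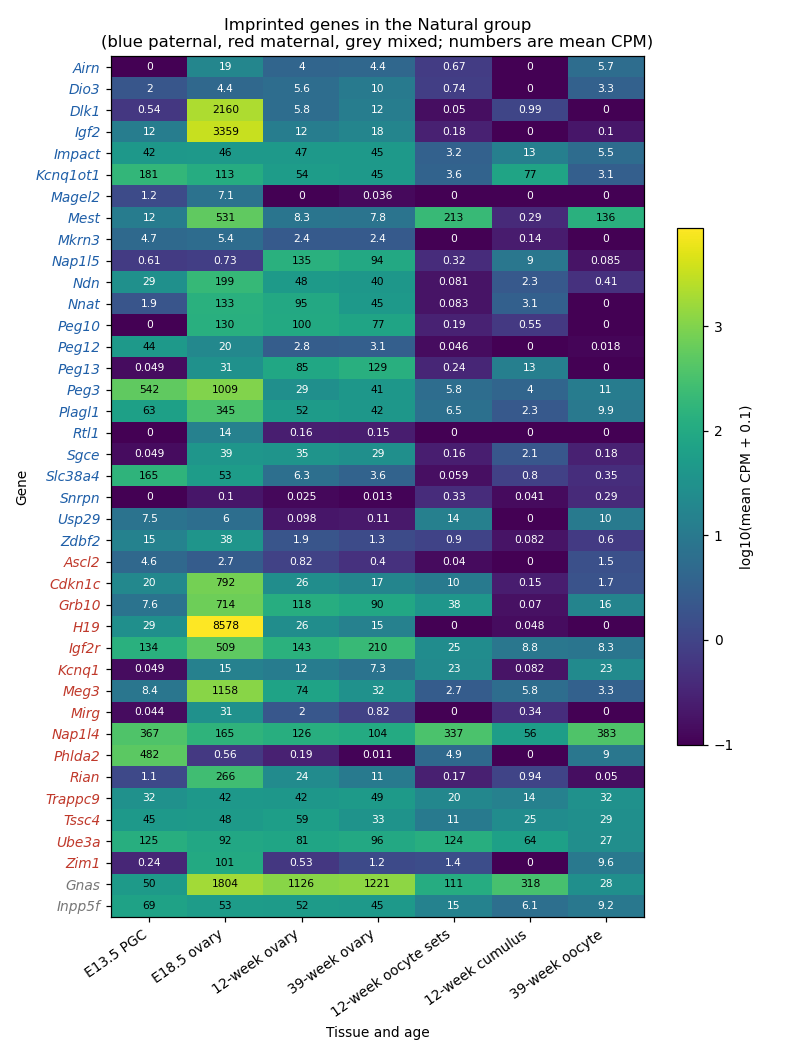
Mean CPM of the 40 imprinted genes (rows) in the Natural group of each of the 7 count tables (columns), on a log10 colour scale, grouped by the parental allele that is mainly expressed. Most members were read in the ovary tables, where 37 of 40 reached 1 CPM at E18.5, while 19 did so in 12-week oocytes and 17 in cumulus cells.

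Per kilobase of exon, the leading genes of the Natural groups differed between tissues. In E18.5 ovaries H19, a noncoding RNA, stood first with 3487 CPM per kb, followed by the fetal growth factor Igf2 with 587, the cell cycle inhibitor Cdkn1c with 389 and the Notch-like ligand Dlk1 with 382. In adult Natural ovaries Gnas, which codes for the stimulatory G protein subunit of the gonadotropin receptors, stood first with 101 CPM per kb at 12 weeks and 109 at 39 weeks. It was followed there by Nap1l5, a histone chaperone family gene, with 73.2 and 50.7. In IVF ovaries at 12 weeks the order of this pair was the other way round, with 115 for Nap1l5 and 106 for Gnas.

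In PGCs Phlda2, a maternally expressed restrainer of placental growth, stood first with 430 CPM per kb and the histone chaperone Nap1l4 followed with 119. In 12-week oocytes Nap1l4 stood first with 109 CPM per kb and Mest, a hydrolase-like gene, followed with 53.9. In cumulus cells Gnas led with 28.4 CPM per kb, before Nap1l4 with 18.2. Snrpn, which shares exons with Snurf, held a mean of at most 0.332 CPM in each Natural or IVF group other than the 39-week IVF oocytes, where the mean was 0.427 CPM, so how its reads were assigned is uncertain.

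Some of the best known members were high in the fetal ovary and low elsewhere. Outside E18.5 ovaries, Dlk1 held at most 1.18 CPM in PGCs, 29.1 CPM in ovaries at 39 weeks, 9.67 CPM at 12 weeks, 0.252 CPM in the oocyte sets and 2.10 CPM in cumulus libraries of either group, and 0 CPM in each 39-week oocyte. Igf2 held 4.96 to 13.6 CPM in IVF PGCs, 8.06 to 17.0 CPM in Natural and 12.0 to 19.7 CPM in IVF ovaries at 12 weeks, 12.8 to 26.1 and 18.0 to 25.1 CPM at 39 weeks, at most 0.498 CPM in the oocyte sets, 0 CPM in cumulus libraries and at most 1.73 CPM in 39-week oocytes. The groups overlapped in each of these tissues. H19 held 12.8 to 33.2 and 21.3 to 49.5 CPM in ovaries at 12 weeks and 11.9 to 21.5 and 14.0 to 29.8 CPM at 39 weeks, and at most 0.463 CPM in the oocyte sets, 0.240 CPM in cumulus libraries and 0 CPM in each 39-week oocyte.

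Others were read in the adult ovary as well. Igf2r held 102 to 197 CPM in Natural and 128 to 233 CPM in IVF PGCs, 135 to 159.5 and 107 to 182 CPM in 12-week ovaries, 18.9 to 32.6 and 13.7 to 26.1 CPM in the oocyte sets, 5.14 to 15.2 and 2.29 to 14.4 CPM in cumulus libraries and 1.96 to 18.3 and 1.47 to 48.6 CPM in 39-week oocytes. Grb10 held 1.96 to 15.3 and 4.69 to 23.6 CPM in PGCs, 105 to 133 and 59.5 to 157 CPM in 12-week ovaries, 72.6 to 108.5 and 73.7 to 90.4 CPM at 39 weeks, 31.3 to 45.8 and 28.4 to 47.4 CPM in the oocyte sets, at most 0.701 CPM in cumulus libraries and 5.70 to 27.2 and 8.35 to 38.6 CPM in 39-week oocytes. The groups overlapped for Igf2r and Grb10 in each tissue listed, and the 39-week ovaries, where Igf2r did not overlap, are given further on. Plagl1 held 23.3 to 100.3 and 26.3 to 102 CPM in PGCs, 39.9 to 59.7 and 37.0 to 79.0 CPM in 12-week ovaries, 18.0 to 67.2 and 31.8 to 74.8 CPM at 39 weeks, 2.62 to 10.9 and 3.77 to 7.79 CPM in the oocyte sets, at most 4.28 CPM in cumulus libraries and 0 to 22.8 CPM in 39-week oocytes.

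Gnas was high in each tissue with somatic cells. It held 1059 to 1287 CPM in Natural and 1092 to 1288 CPM in IVF ovaries at 12 weeks, 1058 to 1424 and 1018 to 1350.1 CPM at 39 weeks, 227 to 458 and 124 to 501 CPM in cumulus libraries, 99.1 to 136 and 92.3 to 140.2 CPM in the oocyte sets, 13.2 to 47.7 and 23.9 to 66.5 CPM in 39-week oocytes, and 19.4 to 136 and 22.7 to 86.5 CPM in PGCs. Cdkn1c, by contrast, held 3.56 to 46.1 and 11.6 to 34.2 CPM in PGCs, 11.2 to 28.7 and 15.8 to 44.7 CPM in 39-week ovaries, 8.67 to 12.1 and 8.07 to 10.6 CPM in the oocyte sets, at most 1.37 CPM in cumulus libraries and at most 6.04 CPM in 39-week oocytes. The groups overlapped in these tissues for both genes.

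The noncoding RNAs differed in where they were read. Meg3 held 5.71 to 9.81 CPM in Natural and 1.48 to 13.6 CPM in IVF PGCs, 66.8 to 87.7 and 57.3 to 132 CPM in 12-week ovaries, 11.9 to 47.9 and 17.7 to 40.7 CPM at 39 weeks, at most 4.70 CPM in the oocyte sets and 7.54 CPM in cumulus libraries, and at most 11.1 CPM in 39-week oocytes. Rian held at most 3.02 CPM in PGCs, 0.53 CPM in the oocyte sets, 2.40 CPM in cumulus libraries and 0.446 CPM in 39-week oocytes, and 18.0 to 30.8 and 20.4 to 41.8 CPM in 12-week ovaries. Kcnq1ot1 held 96.6 to 357 and 76.3 to 204 CPM in PGCs, 29.9 to 68.8 and 38.5 to 69.9 CPM in 12-week ovaries, 22.0 to 88.5 and 22.1 to 88.9 CPM at 39 weeks, 44.9 to 95.6 and 63.9 to 96.6 CPM in cumulus libraries, 2.41 to 7.33 and 1.25 to 7.25 CPM in the oocyte sets and 0 to 14.6 and 0 to 78.7 CPM in 39-week oocytes. Natural and IVF values overlapped for these RNAs in each tissue listed.

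Of the genes called in E18.5 ovaries, as given next, Peg3 held 183 to 869 CPM in Natural and 300.3 to 676 CPM in IVF PGCs, 20.1 to 40.5 and 19.6 to 50.1 CPM in 12-week ovaries, 32.4 to 62.2 and 29.5 to 65.1 CPM at 39 weeks, 5.25 to 6.95 and 5.65 to 8.83 CPM in the oocyte sets, 3.00 to 5.54 and 2.58 to 3.92 CPM in cumulus libraries and 0.109 to 25.9 and 0.660 to 38.9 CPM in 39-week oocytes. Zdbf2 held 6.62 to 29.1 and 10.03 to 22.4 CPM in PGCs, at most 2.72 CPM in 12-week and 1.95 CPM in 39-week ovaries, 1.86 CPM in the oocyte sets, 0.411 CPM in cumulus libraries and 4.96 CPM in 39-week oocytes. Mest held 6.62 to 19.0 and 8.88 to 14.9 CPM in PGCs, 6.38 to 9.62 and 7.29 to 18.0 CPM in 12-week ovaries, 4.92 to 10.6 and 5.78 to 18.4 CPM at 39 weeks and 191 to 244 and 151 to 269 CPM in the oocyte sets. The groups overlapped in each of these tissues.

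The first comparison asked whether IVF conception changed these genes in the fetal ovary. In E18.5 ovaries, 4 of the 38 members tested were higher in IVF mice, namely Peg3, Zim1, Peg10 and Zdbf2, and 0 were lower. Of all 16415 genes tested, 2.67% were higher in IVF ovaries and 5.43% differed in either direction. The median difference of the 38 members was a log2 ratio of 0.23, against 0.00021 over all genes tested, and 27 of the 38 had a positive ratio. Of the called genes 3 are paternally expressed (of 22 tested, median 0.28) and 1, Zim1, is maternally expressed (of 14 tested, median 0.13). The calls rested on single ovaries, as given further on.

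Peg3 (chr7:6703892-6730462, GRCm38) and Zim1 (chr7:6674444-6696540) are neighbouring zinc finger genes of 1 imprinted cluster on chromosome 7. Peg3 is read from the paternal allele, and Natural ovaries held 1326, 977.5, 855.9 and 877.9 CPM, while the 6 IVF ovaries ran from 1329 over a median of 1612 to 1734 CPM. The lowest IVF ovary lay just above the highest Natural ovary, so the groups did not overlap (log2 ratio 0.64, SE 0.14, adjusted p = 0.0225). Zim1 is read from the maternal allele, and Natural ovaries held 173.2, 80.28, 82.79 and 68.42 CPM, against 158.4, a median of 204.8 and at most 255.03 CPM in IVF ovaries. The groups overlapped through Natural replicate 1 (log2 ratio 1.05, SE 0.24, adjusted p = 0.0256).

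Peg10 (chr6:4747306-4760517), a gene derived from a retrotransposon that the placenta needs, held 201.8, 115.9, 91.45 and 112.1 CPM in Natural ovaries. In IVF ovaries it ran from 182.99 over a median of 261 to 352 CPM. Again Natural replicate 1 alone of its group reached into the IVF range (log2 ratio 1.03, SE 0.24, adjusted p = 0.0276). Zdbf2 (chr1:63200358-63314576), a zinc finger gene of the paternal allele, held 57.23, 37.29, 39.01 and 18.96 CPM in Natural ovaries and from 46.6 over a median of 79.98 to 106 CPM in IVF ovaries. One ovary of each group lay within the other group's range (log2 ratio 1.03, SE 0.27, adjusted p = 0.0401).

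**Figure D2:**
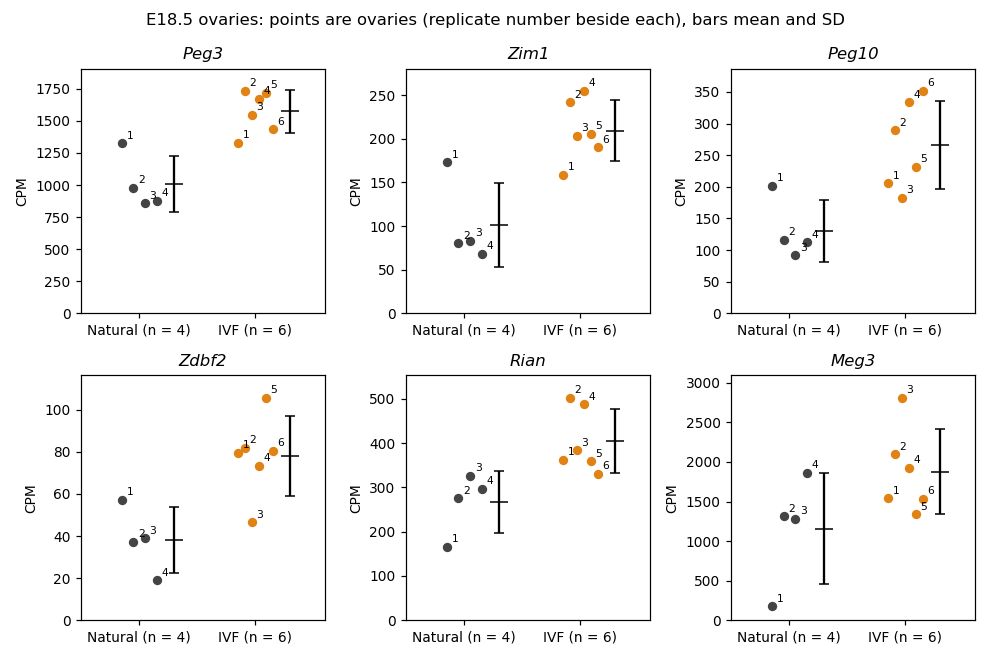
CPM of 6 imprinted genes in each E18.5 ovary (points, 4 Natural and 6 IVF) with the group mean and SD; each panel has its own linear axis from 0. Peg3 and Rian do not overlap between the groups, while Natural replicate 1 lies high for Peg3, Zim1, Peg10 and Zdbf2 and low for Meg3 (177 CPM).

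The plot of E18.5 ovaries also shows a pair of noncoding RNAs of the maternal allele from the Dlk1 and Meg3 cluster on chromosome 12. Rian (chr12:109603945-109661716), a host of small nucleolar RNAs, held 165.7, 275.7, 326.5 and 296.7 CPM in Natural ovaries and 331 to 503 CPM, with a median of 373, in IVF ovaries. The groups did not overlap, but the difference missed the threshold (log2 ratio 0.60, SE 0.18, adjusted p = 0.0681), and DESeq2 called it with an adjusted p of 0.0206. Meg3 held 177.2, 1312, 1281 and 1863 CPM in Natural ovaries and 1337 to 2813 CPM, with a median of 1737, in IVF ovaries (log2 ratio 0.70, SE 0.44, adjusted p = 0.351). Without Natural replicate 1 the Natural ovaries lay close to or within the IVF range.

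The genes with the highest levels in the fetal ovary did not pass the test. H19 held 8463, 8350, 10084.5 and 7414 CPM in Natural ovaries and 6558 to 10788 CPM in IVF ovaries (log2 ratio -0.04, SE 0.14, adjusted p = 0.905). Igf2, its neighbour on the other allele, held 4911, 2650, 3724 and 2150 CPM in Natural ovaries and 1801 to 3554 CPM in IVF ovaries (log2 ratio -0.30, SE 0.23, adjusted p = 0.445). For both genes the groups overlapped over most of their range. Log2 ratios were 0.20 for Igf2r, the receptor that clears IGF2, 0.12 for Cdkn1c, -0.17 for Dlk1, 0.30 for Mest, 0.32 for the zinc finger factor Plagl1, 0.13 for the insulin receptor adaptor Grb10, -0.36 for Kcnq1ot1 and -0.20 for Gnas, none of which passed. Inpp5f, an inositol phosphatase gene, held 47.7 to 56.7 CPM in Natural ovaries and 61.5 to 69.3 CPM in IVF ovaries and missed the threshold in spite of no overlap (log2 ratio 0.27, adjusted p = 0.110).

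Natural replicate 1 at E18.5 stood apart from its group for many members. Against the mean of the other 3 Natural ovaries, it held 0.119 of their Meg3, 0.191 of their Kcnq1ot1, 0.235 of their Mirg, 0.518 of their Rtl1 and 0.553 of their Rian. It held 2.24 times their Zim1, 1.90 times their Peg10, 1.80 times their Zdbf2, 1.73 times their Igf2, 1.47 times their Peg3 and 1.39 times their Igf2r. Without it, 7 members were called. For each of the 7 it lay outside the range of the other Natural ovaries, so that leaving it out widens the difference by itself. The share of all genes called in that fit is not given here, so the number 7 cannot be set beside it. Peg3 (log2 ratio 0.80), Zim1 (1.44), Peg10 (1.32) and Zdbf2 (1.30) were called again, Igf2r (0.34) and the ubiquitin ligase gene Ube3a (0.44) were also higher in IVF ovaries, and Kcnq1ot1 (-0.68), the paternal noncoding RNA that silences its cluster, was lower.

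Other ovaries moved the count the other way. Without IVF replicate 2 or 4, or without Natural replicate 2, 3 or 4, 0 members were called by edgeR, with adjusted p values of 0.0502 to 0.0643 for Peg3 in these fits of fewer samples, and without IVF replicate 6 there were 2. Peg3 and Zim1 were each called in 5 of the 10 fits that left out 1 ovary, Peg10 in 4 and Zdbf2 in 2, while the log2 ratios stayed positive in all 10 fits, at 0.56 to 0.80 for Peg3, 0.90 to 1.44 for Zim1, 0.88 to 1.32 for Peg10 and 0.80 to 1.30 for Zdbf2.

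The make-up of the E18.5 ovaries also differed between the groups. Summed markers of oocytes held 27.0 to 168.8 CPM in IVF ovaries and 168.96 to 579 CPM in Natural ovaries, and 4 of the 8 were lower in IVF ovaries. IVF replicates 2 and 4 held the lowest of these sums, at 27.0 and 42.6 CPM. Summed markers of fetal germ cells overlapped, at 202 to 449 CPM in IVF and 200 to 694 CPM in Natural ovaries, with 1 of 6 lower. Summed red cell markers held 1597 to 4572 CPM in IVF ovaries and 597 to 1596 CPM in Natural ovaries, with 2 of 6 higher. For oocyte and red cell markers the groups did not overlap but nearly met at their edges. Of the steroidogenic markers 3 of 5 were higher, though their sums overlapped, at 29.4 to 43.3 and 19.0 to 48.2 CPM. Summed stroma markers overlapped, at 13994 to 21096 CPM in IVF and 13404 to 22112 CPM in Natural ovaries, with 0 of 7 called by edgeR. The part of these cells in the differences of Peg3, Zim1, Peg10 and Zdbf2 was not tested.

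Promoter windows of the RefSeq annotation (GRCm38.p6, from 250 bases before to 50 after a transcript start) were found for 30 of the 40 members. The hexamer TGCCGC, whose methylated form is recognised by the imprint guardian ZFP57, was searched on both strands, where it reads GCGGCA on the other strand. It stood in 11 of 46 member windows (23.9%) and in 3813 of all 32851 windows (11.6%), and the median number of CpG pairs was 14.5 against 7. The windows of Zdbf2, Zim1 and Peg3 are shown because these genes were called in E18.5 ovaries, and those of Nap1l5 and Mest because they lead the comparisons of ages and of cells given further on. Each is printed on the strand of its gene, 5′ to 3′, with the hexamer in capitals.
Zdbf2, chr1:63200108-63200407 (+): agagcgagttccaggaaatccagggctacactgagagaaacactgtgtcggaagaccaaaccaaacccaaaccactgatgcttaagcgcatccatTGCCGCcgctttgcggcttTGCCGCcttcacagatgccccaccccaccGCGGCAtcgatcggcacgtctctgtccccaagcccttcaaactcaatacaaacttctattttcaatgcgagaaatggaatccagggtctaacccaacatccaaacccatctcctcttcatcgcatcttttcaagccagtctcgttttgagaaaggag
Zim1, chr7:6696383-6696682 (-): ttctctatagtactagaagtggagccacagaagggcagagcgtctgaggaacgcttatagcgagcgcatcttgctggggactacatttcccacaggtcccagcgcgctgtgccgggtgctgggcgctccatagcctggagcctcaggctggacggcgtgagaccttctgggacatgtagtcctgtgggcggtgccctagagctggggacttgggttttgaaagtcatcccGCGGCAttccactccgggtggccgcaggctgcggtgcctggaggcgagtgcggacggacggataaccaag
Peg3, chr7:6730370-6730669 (-): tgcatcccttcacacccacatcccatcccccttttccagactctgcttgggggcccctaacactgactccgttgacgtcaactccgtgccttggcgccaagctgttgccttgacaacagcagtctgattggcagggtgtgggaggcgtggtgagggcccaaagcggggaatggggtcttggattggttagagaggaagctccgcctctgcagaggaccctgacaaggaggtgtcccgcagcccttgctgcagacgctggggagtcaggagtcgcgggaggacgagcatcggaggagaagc
Nap1l5, chr6:58907077-58907376 (-): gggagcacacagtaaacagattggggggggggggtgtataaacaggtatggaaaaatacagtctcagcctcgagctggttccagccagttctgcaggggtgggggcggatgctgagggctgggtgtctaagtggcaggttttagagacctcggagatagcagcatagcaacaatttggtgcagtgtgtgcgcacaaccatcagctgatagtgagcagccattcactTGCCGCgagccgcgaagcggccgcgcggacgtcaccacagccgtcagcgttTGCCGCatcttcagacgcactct
Mest, chr6:30737800-30738099 (+): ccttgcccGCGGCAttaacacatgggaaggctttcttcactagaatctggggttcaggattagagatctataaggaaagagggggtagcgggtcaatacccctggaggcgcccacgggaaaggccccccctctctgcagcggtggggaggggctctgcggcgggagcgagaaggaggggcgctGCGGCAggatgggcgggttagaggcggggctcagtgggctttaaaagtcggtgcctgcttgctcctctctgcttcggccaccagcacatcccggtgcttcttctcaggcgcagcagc
The Zdbf2 window shown held 3 matches, the Nap1l5 and Mest windows 2 each, the Zim1 window 1 and the Peg3 window 0. Zdbf2 has a second window (chr1:63273019-63273318) with 0 matches, and of the 3 windows of Mest 1 (chr6:30733256-30733555) held 0 and the others, which overlap, 2 each. The Peg3 window shares 263 bases with that of Usp29, which is read in the opposite direction from the same region. A match describes the letters of the window and not a bound site.

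In ovaries at 12 weeks, 0 of the 35 members tested were called by edgeR in either direction, where 1 of all 17628 genes was called (0.00567%). At an unadjusted p under 0.05 there were 4 members, and the median log2 ratio of the 35 was 0.07, against 0.0089 over all genes. DESeq2 called 2 of them, both lower in IVF ovaries. Tssc4, a splicing-related gene of the Kcnq1 cluster, held 63.52, 69.0, 51.4 and 53.21 CPM in Natural ovaries and 43.07, 46.39, 45.07, 43.92 and 36.53 CPM in IVF ovaries. The groups did not overlap (log2 ratio -0.46, SE 0.11, adjusted p = 0.156, and 0.0165 by DESeq2).

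Kcnq1, the potassium channel gene of the same cluster, held 10.28, 10.27, 14.82 and 10.97 CPM in Natural and 7.27, 8.44, 7.15, 2.70 and 5.33 CPM in IVF ovaries. The groups again did not overlap (log2 ratio -0.87, SE 0.28, adjusted p = 0.222, and 0.0330 by DESeq2). Cdkn1c held 22.82, 23.87, 24.92 and 32.5 CPM in Natural and 12.75, 19.67, 14.92, 24.32 and 15.46 CPM in IVF ovaries, with IVF replicate 4 within the Natural range (log2 ratio -0.60, adjusted p = 0.227, and 0.0630 by DESeq2). That replicate had the lowest total, with 2839022 counts. Summed markers of oviduct and epithelium also differed at 12 weeks, at 71.7 to 2933 CPM in IVF and 3253 to 7319 CPM in Natural ovaries. Those of expanded cumulus held 4.73 to 10.5 CPM in IVF and 13.5 to 22.6 CPM in Natural ovaries. Of these markers 0 were called by edgeR, and their part in these values was not tested.

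In ovaries at 39 weeks, 0 of the 35 members tested were called by edgeR or by DESeq2, where 0.262% of all genes were called by edgeR, and 4 members had an unadjusted p under 0.05. Igf2r held 201.8, 212.4, 190.9, 239.2 and 205.9 CPM in Natural and 178.9, 141.8, 185, 162.6 and 181.1 CPM in IVF ovaries. The groups did not overlap, and the difference missed the threshold (log2 ratio -0.31, SE 0.10, adjusted p = 0.148, and 0.0684 by DESeq2). Slc38a4, an amino acid transporter gene, held 2.64, 5.58, 2.50, 5.21 and 2.29 CPM in Natural and 5.89, 5.46, 6.99, 6.89 and 5.49 CPM in IVF ovaries, which overlapped at their edges (log2 ratio 0.75, adjusted p = 0.210). Nnat, a small membrane protein gene of the calcium store, had a log2 ratio of 0.58 (adjusted p = 0.220) and H19 one of 0.53 (adjusted p = 0.255). Summed steroidogenic markers held 9751 to 20644 CPM in IVF and 16913 to 27500 CPM in Natural ovaries. Those of endothelium held 197 to 317 and 299 to 416 CPM, and those of granulosa 1189 to 3557 and 700 to 1831 CPM. Oviduct and epithelium markers held 8175 CPM in IVF replicate 1 and at most 207 CPM in Natural ovaries. Of these markers 0 were called by edgeR, and their part was not tested.

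In PGCs, 0 of the 26 members tested were called by edgeR or DESeq2, where 0% of all 12763 genes were called and 349 genes had an unadjusted p under 0.05. The 1 member at that level was Ndn, a MAGE family gene known as a restrainer of growth. It held 26.0, 26.7, 37.0 and 27.7 CPM in Natural and 50.5, 33.2, 41.4, 49.6 and 52.0 CPM in IVF libraries, overlapping through Natural replicate 3 and IVF replicate 2 (log2 ratio 0.63, SE 0.21, p = 0.0107 from edgeR's quasi-likelihood test, adjusted p = 1.00). The next were Ascl2 (log2 ratio 1.17, p = 0.0861), at 4.41, 10.3, 1.78 and 1.76 CPM in Natural and 14.8, 11.2, 8.10, 2.74 and 15.7 CPM in IVF libraries, and Mkrn3 (log2 ratio 0.78, p = 0.107), at 3.51 to 6.05 and 4.02 to 14.1 CPM, both with overlap. Phlda2, the leading member in these cells, held 1118, 200, 428.6 and 180.8 CPM in Natural and 532.2, 190.8, 219.1, 402.6 and 253.6 CPM in IVF libraries. Natural replicate 1 lay above all others, and the log2 ratio was -0.59.

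Natural replicate 2 of the PGCs stood apart in other members. It held 136 CPM of Gnas, where the other 3 Natural libraries held 19.4 to 23.9, and 61.9 CPM of H19 against 13.2 to 24.2. It held 41.8 CPM of Igf2 against 0 to 3.95 and 183 CPM of Peg3 against 524 to 869. Its summed granulosa markers were 12.0 CPM, against 0 to 1.96 in the other 3 libraries.

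In 12-week oocytes, 0 of the 28 members tested were called by edgeR or DESeq2, where 0.0277% of all genes (4 of 14444) were called by edgeR. The 1 member with an unadjusted p under 0.05 was again Ndn, at 0, 0.153, 0, 0 and 0.252 CPM in the Natural sets and 0.216, 0.412, 1.23, 0.528 and 0.0454 CPM in the IVF sets. The sets overlapped, and all lay near or below 1 CPM (log2 ratio 2.44, SE 1.09, p = 0.0435 from edgeR's quasi-likelihood test, adjusted p = 0.745). Next came Tssc4 (log2 ratio 0.28, p = 0.159), at 8.13 to 14.6 CPM in the Natural and 12.2 to 14.2 CPM in the IVF sets, and Rian (log2 ratio 0.96, p = 0.172), at most 0.53 CPM in any set. Counts of Ndn stood in 3 of 36 Natural and 11 of 40 IVF oocytes. H19 held 0 counts in the 36 Natural oocytes and 37 counts in 5 of the 40 IVF oocytes, and Magel2, a MAGE family gene near Ndn, 0 counts and 18 counts in 3 oocytes. Mkrn3 and Rtl1 also had counts in IVF oocytes only, in 2 and 1. The other way round, Peg12 had counts in 2 Natural and 0 IVF oocytes, and Peg13 in 10 and 5. The share of all genes with such patterns is not given here. Summed red cell markers held 19.5 to 73.8 CPM in the Natural and 7.31 to 357 CPM in the IVF sets, and their part was not tested. Mest, the leading paternal member, ran over single oocytes from 46.4 over a median of 211 to 272 CPM in Natural and from 51.8 over 218 to 341 CPM in IVF mice. The single oocytes of both groups covered nearly one range.

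In cumulus cells, where the fit held the library set as a term, 0 of the 15 members tested were called by edgeR or DESeq2, none had an unadjusted p under 0.05, and 0.00973% of all genes (1 of 10280) were called by edgeR. The smallest p was that of Ube3a, at 40.6, 42.8, 87.9, 59.7 and 88.5 CPM in Natural and 110.35, 77.0, 98.3, 59.6 and 52.6 CPM in IVF libraries (log2 ratio 0.33, p = 0.0610 from edgeR's quasi-likelihood test, adjusted p = 0.843). The groups overlapped widely, and within Natural libraries the values of replicates 1 and 2 lay below those of replicates 3 to 5, which belong to the other library set. Next were Tssc4 (log2 ratio -0.35, p = 0.123), at 13.2 to 41.9 CPM in Natural and 8.88 to 34.3 CPM in IVF libraries, and Nnat (log2 ratio 0.63, p = 0.234), at 1.17 to 5.53 and 0.846 to 7.88 CPM, both with overlap. Natural replicate 5 carries a column name that shares its fields with an IVF oocyte set, and its place in the Natural group follows the label.

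**Figure D3:**
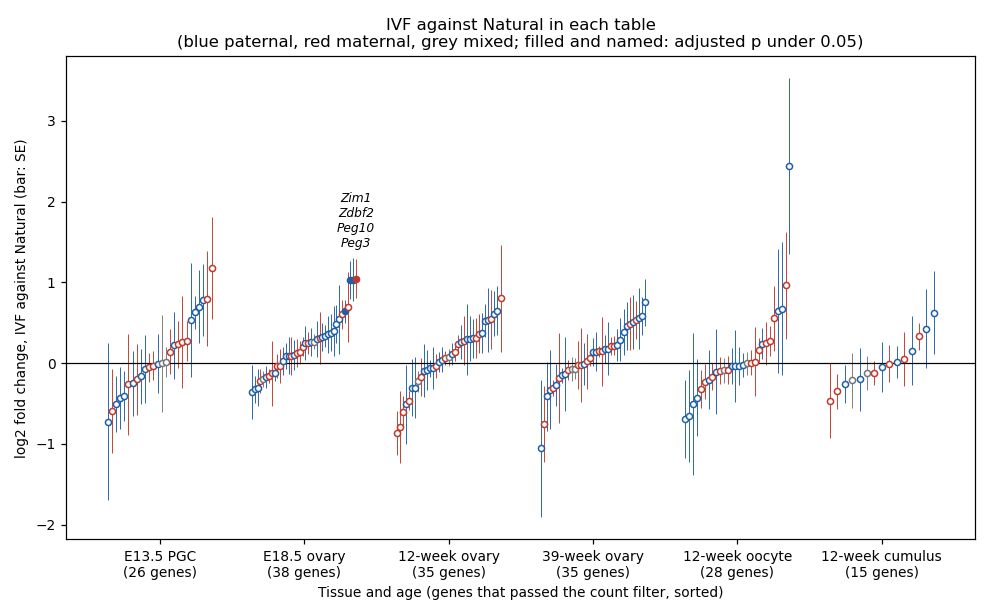
Log2 ratio of IVF to Natural with its SE for each imprinted gene tested in 6 comparisons (columns), with the 4 genes called at an adjusted p below 0.05 filled and named. The called genes stand only in the E18.5 ovary, with ratios of 0.64 to 1.05.

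The plot of IVF differences puts the called genes in 1 of the 6 comparisons. A difference between ages needs its own test, and none was called by edgeR or DESeq2. For IVF against Natural at 12 weeks less that at E18.5, 0 of the 39 members tested were called, 4 had an unadjusted p under 0.05, and 0.314% of all genes were called. The difference between the ratios was -1.32 for Zdbf2 (SE 0.42, adjusted p = 0.155), -0.69 for Peg10 (adjusted p = 0.577), -0.30 for Peg3 (adjusted p = 0.738) and -0.26 for Zim1 (adjusted p = 0.897). At 39 weeks less 12 weeks, 0 of the 39 were called, 6 had an unadjusted p under 0.05, and 2.71% of all genes were called. The nearest to the threshold were Tssc4 (0.52, adjusted p = 0.0746) and Cdkn1c (1.09, adjusted p = 0.0821). Leaving out 1 ovary called Cdkn1c in 2 of 19 fits and Phlda2 in 1. Oviduct and epithelium markers differed between the groups at 12 weeks and were high in 1 IVF ovary at 39 weeks, as given above. Their part in these values was not tested.

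The levels were also summed over the members of each allele, with no test of the sums. In E18.5 ovaries the 23 paternal members summed to 8265 ± 1521 CPM (SD, n = 4) in Natural and 8330 ± 1047 CPM (SD, n = 6) in IVF mice. The 15 maternal members summed to 12516 ± 1305 and 13480 ± 2262 CPM, of which H19 made up 64.5% over both groups. Without H19, the maternal sums were 3937 ± 625 and 5118 ± 850 CPM, and without Igf2 the paternal sums were 4906 ± 496 and 5607 ± 548 CPM. In 12-week ovaries the paternal sums were 729 ± 59.1 CPM (n = 4) and 850 ± 179 CPM (n = 5), and the maternal sums 733 ± 38.9 and 737 ± 85.4 CPM. In 39-week ovaries the paternal sums were 649.8 ± 111 and 747 ± 133 CPM (n = 5 each), and the maternal sums 667 ± 31.6 and 672 ± 25.1 CPM, or 457 ± 17.9 and 502 ± 16.2 CPM without Igf2r. Over single 39-week oocytes the paternal sums were 187 ± 52.8 CPM in 9 Natural and 294 ± 89.6 CPM in 10 IVF oocytes, with Mest as 77.0% of them, and the maternal sums 543 ± 264 and 419 ± 82.7 CPM. The differences exceeded the SDs of both groups for the E18.5 maternal sum without H19, the E18.5 paternal sum without Igf2, the 39-week ovary maternal sum without Igf2r and the paternal sum of 39-week oocytes, and were within the larger SD for the other sums given here.

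The second question was how the members changed with age in Natural ovaries, set on one joint scale over the ages. Between E18.5 and 12 weeks 25 of the 39 members tested fell and 3 rose, where 24.3% of all genes tested fell and 25.3% rose. The median log2 ratio of the members was -1.98, against 0.0075 over all genes, and it is the same with Magel2 at the bound given below. Of 22 paternal members 14 fell and 2 rose, of 15 maternal members 10 fell and 1 rose, and of the mixed members Gnas fell (-0.60). Each age stands in a count table of its own, and adult RNA came from a part of the ovary, so that age and table cannot be told apart.

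The make-up of the ovary moved in this contrast as well. Of the markers tested, 6 of 7 for stroma were lower at 12 weeks, with sums of 12312 to 20325 CPM at E18.5 and 3478 to 5330.0 CPM at 12 weeks, and 6 of 6 for fetal germ cells were lower, with sums of 185 to 638 and 13.4 to 27.5 CPM. Higher were 5 of 5 steroidogenic markers, with sums of 17.6 to 44.3 and 10545 to 19104 CPM, and 5 of 7 granulosa markers. The part of these cells in the members' differences was not tested.

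Among the members with counts at both ages, Dlk1, H19 and Igf2 had the lowest log2 ratios. H19 (chr7:142575530-142578146) went from 8535, 7670, 9323 and 6815 CPM at E18.5 to 33.0, 25.9, 30.6 and 12.8 CPM at 12 weeks (log2 ratio -8.31, SE 0.37). Igf2 (chr7:142650768-142666816) went from 4953, 2434, 3443 and 1976 CPM to 8.01, 11.2, 11.7 and 16.9 CPM (log2 ratio -8.06). Dlk1 (chr12:109452485-109463336) went from 2133, 1628, 1781 and 2597 CPM to 6.13, 9.57, 5.55 and 1.68 CPM (log2 ratio -8.48, SE 0.86). No ovary at 12 weeks came near the lowest ovary at E18.5 for any of these 3 genes.

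Other members of the same clusters fell by less. Zim1 went from 175, 73.7, 76.5 and 62.9 CPM to 0.204, 0.698, 0.651 and 0.571 CPM, and Rtl1 from 8.54, 12.3, 14.9 and 18.0 CPM to 0.0818, 0.249, 0.171 and 0.134 CPM. In the chromosome 12 cluster Rtl1, a retrotransposon-derived gene, had a log2 ratio of -6.37, Meg3 one of -3.87, the microRNA host Mirg one of -3.81 and Rian one of -3.40. In the Peg3 cluster the ratio was -7.50 for Zim1, -5.78 for Usp29 and -5.07 for Peg3. Cdkn1c fell (-4.85), as did Mest (-5.92), Zdbf2 (-4.30), Slc38a4 (-3.00), Peg12 (-2.78), Plagl1 (-2.67), Grb10 (-2.53), Airn (-2.15), Ndn (-1.98), Igf2r (-1.76), the trophoblast transcription factor Ascl2 (-1.60), the makorin ring finger gene Mkrn3 (-1.05) and Nap1l4 (-0.31). Magel2 held 336 counts over the 4 Natural ovaries at E18.5 and 0 counts at 12 weeks, which puts it at least 238-fold lower against a floor of 3 counts over the group. Airn overlaps Igf2r in the opposite direction, and without a stated strand setting their reads cannot be told apart.

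**Figure D4:**
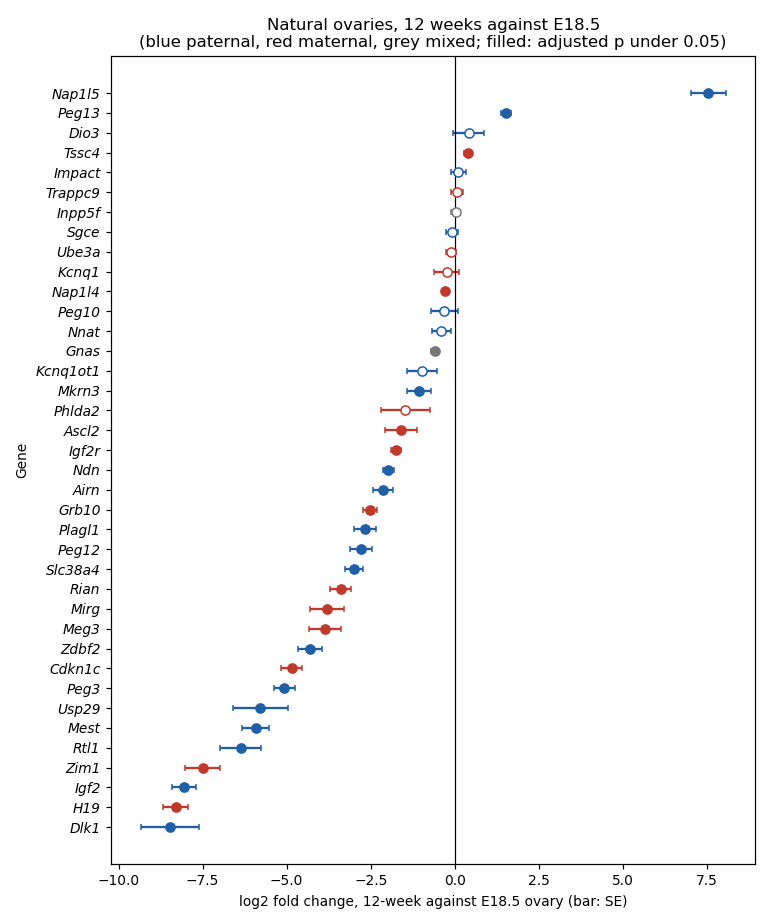
Log2 ratio of 12 weeks to E18.5 in Natural ovaries with its SE for 38 imprinted genes, ordered by value and coloured by the allele that is mainly expressed; Magel2, with 0 counts at 12 weeks, is left out. Most genes lie to the left of 0, down to Dlk1 at -8.48, and Nap1l5 lies far to the right at 7.54.

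The 3 members that rose stand on the other side of the plot of age differences. Nap1l5 (chr6:58905233-58907126), a paternally expressed gene inside Herc3, went from 0.670, 0.333, 0.644 and 1.12 CPM at E18.5 to 189, 103, 158 and 89.2 CPM at 12 weeks (log2 ratio 7.54, SE 0.52, adjusted p = 1.8e-11). Peg13, a noncoding RNA within Trappc9, went from 42.7, 25.3, 25.8 and 24.1 CPM to 83.6, 86.8, 92.2 and 77.8 CPM (log2 ratio 1.53). Neither gene overlapped between the ages, and Trappc9 was not called. Tssc4 had a log2 ratio of 0.39 (adjusted p = 0.0125), a call that was lost without 12-week Natural replicate 2 (adjusted p = 0.0546).

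The members that were not called between E18.5 and 12 weeks were Peg10, Sgce, Ube3a, Kcnq1, Phlda2, Dio3, Nnat, Impact, Trappc9, Inpp5f and Kcnq1ot1, the last of which missed the threshold by little (log2 ratio -0.97, adjusted p = 0.0629). Peg10 and Sgce share a promoter region on chromosome 6.

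Between 12 and 39 weeks the differences were fewer. Of the 39 members tested 3 rose and 4 fell by edgeR, where 10% of all genes rose and 11.6% fell. DESeq2 called 12 members, and its share over all genes in this contrast is not given here. Of the markers, 6 of 6 for oviduct and epithelium were lower at 39 weeks, with sums of 3235 to 7375 CPM at 12 weeks and 51.3 to 227 CPM at 39 weeks, and 5 of 6 for red cells and 3 of 5 for endothelium were higher. Their part in the members' differences was not tested. Igf2r went from 159, 135, 142 and 135 CPM at 12 weeks to 204 to 263 CPM at 39 weeks (log2 ratio 0.68, adjusted p = 0.00145). Peg13 went to 129, 144, 164, 132 and 131 CPM (log2 ratio 0.72, adjusted p = 0.00144). Both genes were higher in each of the 5 ovaries at 39 weeks than in any at 12 weeks. Ube3a had a log2 ratio of 0.38 (adjusted p = 0.0490) and was called in 2 of the 9 fits that left out 1 ovary, those without 12-week replicate 3 or 39-week replicate 1.

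Of those that fell, Tssc4 reached 41.2, 34.2, 34.3, 37.7 and 34.8 CPM at 39 weeks (log2 ratio -0.70, adjusted p = 0.000428). Rian went from 30.7, 17.8, 26.1 and 19.8 CPM to 7.91, 17.5, 7.06, 15.4 and 11.4 CPM (log2 ratio -0.99, adjusted p = 0.0101). Neither overlapped between the ages. Nnat had a log2 ratio of -0.95 (adjusted p = 0.0148), lost without 12-week Natural replicate 3 (adjusted p = 0.0843), and Phlda2 fell from 19 counts to 2 over the libraries of each age, a ratio of 12.0 with a counting interval of 2.89 to 106 (adjusted p = 0.0132). Nap1l5, after its rise, held 35.9, 108, 128, 115 and 121 CPM at 39 weeks and was not called.

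The third comparison set 12-week oocytes against the cumulus cells that surround them, over 5 Natural oocyte sets and 3 Natural cumulus libraries (replicates 3 to 5) on a joint scale. These 3 are the Natural libraries of the cumulus set that is named like the oocytes. The names of replicates 3 and 4 match those of 2 of the oocyte sets, a match that the fit did not use, and replicate 5 is the library with the name of an IVF set. Of the 30 members tested, 17 were higher in oocytes and 9 were lower, where 45.5% of all genes were higher and 36.3% lower. Of the 12 maternal members 9 were higher and 0 lower. Of the 16 paternal members 7 were higher and 8 lower, and of the mixed members Inpp5f was higher (1.62) and Gnas lower (-1.19). Without cumulus replicate 5, 18 were higher and 8 lower, and with all 5 Natural cumulus libraries 13 were higher and 7 lower. Summed oocyte markers held 21300 to 26811 CPM in the oocyte sets and 11.4 to 16.3 CPM in the cumulus libraries.

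Several members were read in oocytes and hardly at all in cumulus cells. Mest (chr6:30733506-30748466) held 274, 246, 235, 235 and 216 CPM in the oocyte sets and 0, 0.814 and 0.305 CPM in the cumulus libraries (log2 ratio 9.26, with 8 counts in cumulus cells). Usp29, a ubiquitin peptidase gene, held 15.0 to 16.9 CPM in oocytes and 0 counts in cumulus cells, which puts it at least 70.1-fold higher in oocytes. Phlda2 held 4.55 to 6.80 CPM in oocytes and 0 counts in cumulus cells, at least 24.1-fold higher. For Zim1, Airn and Dio3, also with 0 counts in cumulus cells, the bounds were at least 6.40-fold, 3.63-fold and 3.21-fold higher.

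Grb10 held 36.2 to 51.4 CPM in oocytes and 2 counts in cumulus cells, a ratio of 288 with a counting interval of 79.7 to 2380. For Kcnq1, at 20.1 to 29.5 CPM in oocytes and also 2 counts in cumulus cells, the ratio was 172 with an interval of 47.7 to 1424. Nap1l4 (chr7:143513579-143549882) was read in both, at 352, 474, 370, 376 and 343 CPM in oocytes and 49.4, 50.6 and 47.9 CPM in cumulus cells (log2 ratio 2.96). Plagl1 (1.93), Igf2r (1.77), Ube3a (1.21), Trappc9 (1.19) and Peg3 (0.93) were higher in oocytes by smaller ratios.

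**Figure D5:**
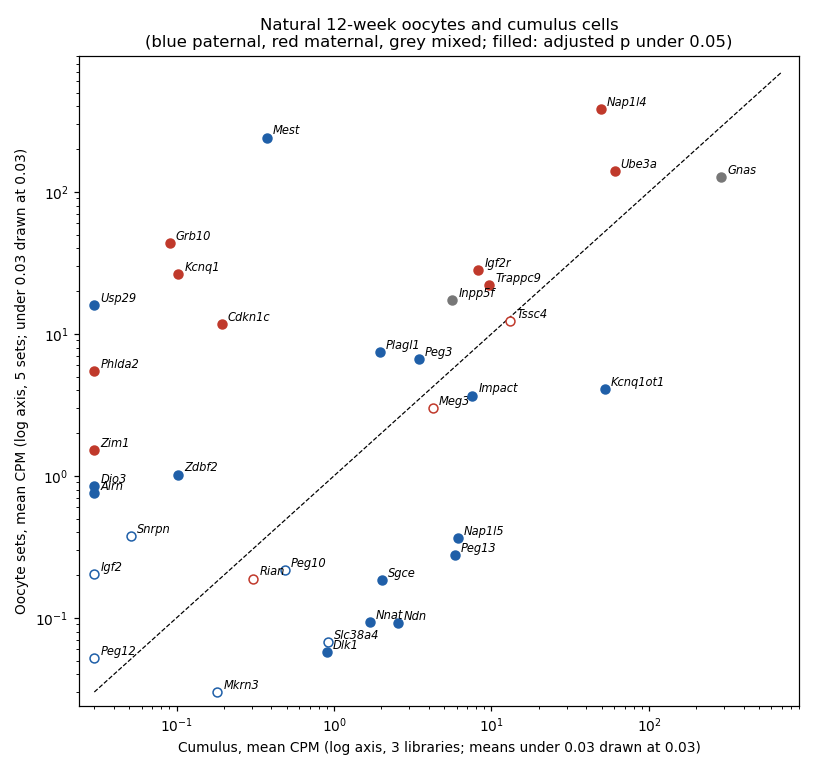
Mean CPM of the imprinted genes in 5 Natural 12-week oocyte sets (vertical axis) against 3 Natural cumulus libraries (horizontal axis), both on log scales, with means under 0.03 CPM drawn at 0.03 and the line of equal levels. Mest and Nap1l4 lie highest on the oocyte axis, and Kcnq1ot1, Peg13, Ndn and Nap1l5 lie below the line.

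Of the 9 members lower in oocytes 8 are paternally expressed, and Gnas has transcripts of both kinds. Kcnq1ot1 (chr7:143213111-143296547) held 3.39, 3.28, 2.84, 2.71 and 8.30 CPM in oocytes and 59.7, 35.0 and 62.8 CPM in cumulus cells (log2 ratio -3.67). Kcnq1, within which it is read in the opposite direction, stood the other way round, as given above, and reads of this pair cannot be assigned with certainty. Ndn (-4.64), Peg13 (-4.33), Nnat (-4.27), Nap1l5 (-3.99), Sgce (-3.37) and the translation regulator Impact (-1.03) were lower in oocytes too. Dlk1 (-3.73) lost its call without any 1 of the 3 cumulus libraries (adjusted p = 0.0511 to 0.144). Meg3, Rian, Peg10 and Tssc4 were not called.

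In 39-week oocytes the values compare 9 Natural with 10 IVF oocytes as 1 sample a group, with pooled counts and exact Poisson intervals that cover counting error only. Of the 21 members with a mean of at least 1 CPM, 0 were at least 2-fold higher and 5 at least 2-fold lower in IVF oocytes. Of all 11318 such genes, 925 were higher and 1976 lower by that much, 25.6% in either direction. The lean toward lower values was thus seen over all genes too. The ratio of IVF to Natural was 0.406 for Zim1 (7.12 CPM in Natural and 2.89 CPM in IVF oocytes, interval 0.363 to 0.455) and 0.420 for Airn (0.362 to 0.487). It was 0.377 for Meg3 (0.310 to 0.456) and 0.0194 for Dio3 (0.0110 to 0.0318), whose counts stood in 3 Natural oocytes and 1 IVF oocyte.

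For Tssc4 the pooled ratio was 0.423 (0.402 to 0.445), from 34.1 and 14.4 CPM, whereas the medians over single oocytes were 13.7 CPM in Natural and 13.3 CPM in IVF oocytes. Mest had the ratio nearest to 2-fold on the other side, at 1.99 (1.95 to 2.03). Over single oocytes it ran from 65.9 over a median of 142 to 227 CPM in Natural and from 156 over 207 to 491 CPM in IVF oocytes. The ranges of Mest overlapped, with the higher median in the IVF oocytes. These ranges are spreads over oocytes and not over animals.

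Of the genes that act with imprinting, lists of 3 kinds were compared in the same fits. The lists were written with earlier results of these data known. Their shares beside those of all genes are therefore descriptions and not tests. Of the genes that keep or write imprint marks, 4 of the 15 tested were higher in E18.5 IVF ovaries and 0 were lower, where 2.67% of all genes were higher. Oocyte markers were lower and red cell markers higher in the same comparison, as given above, and their part was not tested. The 4 genes were the imprint guardian Zfp445 (log2 ratio 0.61, adjusted p = 0.0154), the DNA methyltransferase Dnmt3a (0.47, adjusted p = 0.0401) and the demethylating enzymes Tet2 (0.56, adjusted p = 0.0250) and Tet3 (0.63, adjusted p = 0.0262). Of 27 further imprinted genes tested 1 was higher, the Polycomb gene Sfmbt2, at 9.68 ± 0.463 CPM in IVF (SD, n = 6) and 5.52 ± 1.44 CPM in Natural ovaries (SD, n = 4; log2 ratio 0.81, adjusted p = 0.0365). Of 13 binding proteins, receptors and other partners of the IGF pathway 0 were called by edgeR. In the other 5 comparisons of IVF with Natural, 0 genes of these lists were called by edgeR.

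With age the lists moved as well. Between E18.5 and 12 weeks, 14 of the 17 keepers and writers tested fell in Natural ovaries and 1 rose, where 24.3% of all genes fell and 25.3% rose. The markers of fetal germ cells, of which Dppa3 is 1, fell too, as given above, and their part was not tested. The falls include Dppa3 (log2 ratio -4.58), which shields the maternal genome from demethylation, the histone demethylase Kdm1b (-2.85), which oocytes need to set imprints, and Zfp57 (-1.63), and the gene that rose was Dnmt3l (3.46), a cofactor of the methyltransferases in growing oocytes. Of the 13 IGF partners 9 fell and 0 rose. Of 15 keepers and writers tested between oocytes and cumulus cells, 13 were higher in oocytes and 1, Tet2, was lower, where 45.5% of all genes were higher and 36.3% lower.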

How the data were processed

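RNA-seq counts of reads per gene were deposited by the authors as 7 tables without normalization, and 143 libraries had a column in them. The submitters' processing notes name Trimmomatic (0.32), STAR (2.3.0e), featureCounts (1.5.0), DESeq2 and mm10. The strand setting of the counting is not given in the sources used here.

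Each comparison used edgeR (4.0.16) in R (4.3.3) with TMM scaling, the default expression filter and quasi-likelihood fits over all genes, two-sided, with Benjamini-Hochberg adjustment and a threshold of 0.05. The SE of a log2 ratio was its size divided by the square root of F. For cumulus cells a term for the library set was added. Counts of 12-week oocytes were added up over libraries whose names share their first fields, which were taken to mark a donor; the labels do not say so. For 39-week oocytes, counts were pooled per group, and genes with a mean of at least 1 CPM were described by a 2-fold difference with exact 95% Poisson intervals. Counts of at most 3 over a group were taken as the floor for bounds. DESeq2 (1.42.0), other scaling, no filter, leaving out each library, and limma (3.58.1) for the oocyte sets served as alternatives. The fits were tested on simulated data. No libraries shared more than 2.21% of their counts above 10.

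The members and lists were chosen with earlier results of these data known. Genes named are the called members, the 3 with the smallest p in each IVF comparison, 15 well known members in every tissue, and the 6 called with the largest rise and fall in the contrasts of ages and cells. Others, such as Inpp5f, Phlda2 in PGCs and the leaders per kilobase, were named after their values were seen. Of the values from 1 to 20, a share of 66.7 to 79.1% by table was even, so intervals cover counting error only. Of the names in each ovary table, 27 are numbers and were kept. Where labels do not tie libraries to separate animals, p values measure the spread between libraries, which may be technical. Gene positions are from the GRCm38 annotation and promoter windows from RefSeq (GRCm38.p6). Cumulus cells at 39 weeks were not analysed here.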

Additional observations from a re-analysis of the deposited data

Results flagged for a closer look

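Among 36 groups of 4 to 10 libraries, 3 held a library that stood apart by Dixon's test, where chance gives about 1 group in 20. The groups held the summed levels of each allele in every tissue and the levels of the called members in E18.5 ovaries. All 3 were groups of sums over single 39-week oocytes. The paternally expressed members summed to 523 CPM in IVF replicate 8, the highest of the 10 IVF oocytes. The maternally expressed members summed to 1182 CPM in Natural replicate 9, the highest of the 9 Natural oocytes, and to 610 CPM in IVF replicate 7, the highest of the 10 IVF oocytes.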

How the results depend on the processing

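In E18.5 ovaries, the number of members called ran from 0 to 7 when 1 ovary was left out (7 without Natural replicate 1, 0 without IVF replicate 2 or 4 or Natural replicate 2, 3 or 4) and was 0 with the replicate number as a block, where 3 of all genes were called, against 4 and 891 without it. DESeq2 called 2 members in 12-week ovaries. Between 12 and 39 weeks it called 12, with its share over all genes not given here. For the IVF effect at 39 against 12 weeks the number was 0 to 1 over the fits that left out 1 ovary, with 1 call without 12-week IVF replicate 2, 39-week IVF replicate 3 or 39-week Natural replicate 3. At a 1.5-fold difference, 11 members of the 39-week oocytes were past it, 5 higher and 6 lower, beside 2312 higher and 3233 lower of all 11318 genes. The number past 2-fold was 5 with means of single oocytes and 6 with medians. It was 6 with scaling by the median ratio (chosen after seeing the data). The members that passed differed. With means, Kcnq1ot1 was higher and Tssc4 no longer lower, beside 689 higher and 1612 lower of all genes. With medians, Impact was higher, Kcnq1ot1 and Phlda2 were lower, and Tssc4 and Dio3 no longer passed, beside 1123 higher and 1212 lower. With scaling by the median ratio, Mest was higher too, beside 1037 higher and 1884 lower.

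The labels do not say that replicate numbers pair the samples. Deviations of same-numbered libraries correlated at -0.147 to 0.262 in cumulus cells, -0.348 to 0.173 and -0.006 to 0.399 in 12-week and 39-week ovaries, -0.135 to 0.598 in PGCs and -0.143 to 0.056 in E18.5 ovaries. These values are too few to show or exclude a pairing. With the block, 28 and 6 members were called in the contrasts of ages and 0 in the other comparisons that allow it. Over all genes, DESeq2 called 1870 in E18.5 ovaries, 635 in 12-week ovaries (edgeR 1, without a filter 9), 1135 in 39-week ovaries (edgeR 45, without a filter 28, block 24), 54 in oocytes (edgeR 4, without a filter 19, limma 2), 31 in cumulus cells (edgeR 1, without a filter 104, block 24, within a library set 639 and 2, without the set term 0), and 322 and 1531 for the IVF effects between ages (edgeR 62 and 534, block 1 and 9; the first with size factors 29, without a filter 16). No called result reversed under an alternative that was run. In the untested 39-week oocytes some members changed side with the measure. Impact had a pooled ratio of 0.753 and Phlda2 one of 1.15, but with medians Impact was past 2-fold higher and Phlda2 past 2-fold lower. Kcnq1ot1 was past 2-fold higher with means and past 2-fold lower with medians. Of single genes and sums, 573 values kept their side, 42 lost their call, mostly with 1 library left out, 2 gained one and 2 sums moved by more than their SD. Of the counts of members, 158 stayed within 1.5 times the value reported and 14 moved. The number of libraries and the totals limit what can be seen of members with few counts, such as Magel2, Dio3, Phlda2 in ovaries and Snrpn.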

Other observations

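Of 28 further imprinted genes tested between E18.5 and 12 weeks in Natural ovaries 10 rose and 9 fell, from Dhcr7 (log2 ratio 3.64), the last enzyme of cholesterol synthesis, to Klf14 (-8.23), a zinc finger gene. Between 12 and 39 weeks 3 rose and 4 fell, and of the 13 IGF partners 4 rose (Igf1r, Insr, Irs2 and Igfbp4) and 2 fell. In the IVF effect at 39 against 12 weeks, Slc22a18 was called higher and Herc3, within which Nap1l5 lies, lower, where 2.71% of all genes were called. Slc22a18 also fell in Natural ovaries between these ages (log2 ratio -3.58), as did the oviduct and epithelium markers. Those markers were high in IVF replicate 1 at 39 weeks, at 8175 CPM, and their part was not tested. Between oocytes and cumulus cells 7 of 22 further imprinted genes were higher and 12 lower, and of the 13 IGF partners the 3 RNA-binding proteins Igf2bp1, Igf2bp2 and Igf2bp3 were higher in oocytes and 8 were lower.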
